A study of Mus musculus with 24 samples.

Results

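The change from undifferentiated mouse embryonic stem cells to day 4 embryoid bodies was measured in control cells that carried a scrambled sequence (siSCR). Members were the 6 arrays titled siSCR day4 or siSCR ES, 3 of each state, of 24 arrays in the series, and all 19938 genes that a probe annotation gave 1 symbol were compared. The cells were D3, an established mouse embryonic stem cell line. Day 4 embryoid bodies were aggregates formed in bacteriological dishes without the cytokine LIF, and received neither DMSO nor retinoic acid. The undifferentiated cells were grown in medium with 15% fetal bovine serum. Both groups carried the scrambled sequence, and how it was introduced and whether 1 clone was used are not given in the sources used here. Before the experiments the cells had been passaged several times on gelatin, a step meant to remove feeder cells. The series also holds siPRMT1 cells, with a knockdown of Prmt1, which encodes an arginine methyltransferase, in the same states (3 arrays each). Their values are used below to test whether a response differs. All 24 arrays of the series also set the spread behind each standard error and call. The labels call the 3 arrays of a group biological replicates without saying whether they came from separate cultures. The adjusted p-values therefore measure the spread between arrays of a group, pooled over the 8 groups.

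Embryoid bodies are floating aggregates in which embryonic stem cells begin to differentiate once LIF is withdrawn. Their outer layer becomes extraembryonic endoderm, of which the visceral kind takes up nutrients through large endocytic receptors and secretes apolipoproteins and carrier proteins, while the parietal kind lays down basement membrane. The inner cells leave the naive pluripotent state, pass through one that resembles the epiblast of the implanted embryo, and then form germ layers. Cultures of embryonic stem cells also hold rare cells that briefly switch on genes of the early cleavage embryo. Tissue that oxygen reaches poorly keeps the HIF transcription factors, and through them genes of glycolysis and of adaptation to low oxygen are switched on.

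Values are log2 expression levels of 1 probe set per gene. A difference is day 4 minus undifferentiated (n = 3 arrays each) ± standard error from a linear model (limma) fitted to all 24 arrays. The call on a gene required that its Benjamini-Hochberg adjusted p over all 19938 genes be under 0.05. The medians of the 6 arrays lay between 7.52 and 7.62. Arrays of one state correlated across genes at 0.996 to 0.998 and arrays of different states at 0.983 to 0.986. The leading principal component of the 6 arrays held 77.5% of their variance and separated the states. Prmt1, the gene targeted in the series, had levels of 11.02, 10.85 and 10.92 in day 4 siSCR cells and 11.07, 10.95 and 11.10 in undifferentiated ones. These overlap, and the difference of -0.11 ± 0.061 was not called (adjusted p = 0.202, two-sided exact permutation p = 0.2, where 3 against 3 allow no less than 0.1), although quantile normalization (adjusted p = 0.0373) and array weights (adjusted p = 0.00968) called it.

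Of the 19938 genes, 5632 (28.2%) were called, 2891 (14.5%) higher and 2741 (13.7%) lower at day 4, and the median difference over all genes was 0.00067. Of the called genes 550 (2.76% of all genes) differed at least 2-fold: 197 (0.988%) were at least 2-fold higher and 353 (1.77%) at least 2-fold lower. The share of calls that were higher was 51.3% as deposited, 66.1% after centring each array on its median and 64.2% after scaling as well. Among the 15 leading rises, genes of visceral endoderm and of the epiblast stood beside Lgals2, a galectin, Gkn2, a gastrokine, Pga5, a pepsinogen, and Pla2g7, which hydrolyses platelet-activating factor. Lgals2 was higher by 3.42 ± 0.097, Gkn2 by 3.24 ± 0.13, Pga5 by 3.22 ± 0.076 and Pla2g7 by 2.84 ± 0.057. Clic6, an intracellular chloride channel protein, Enpp3, an ectonucleotide phosphodiesterase, and P2rx3, an ATP-gated ion channel, rose by between 2.46 and 2.78. The 15 leading falls began with Efemp1, an extracellular matrix glycoprotein, at -3.61 ± 0.11, or 12.2-fold lower. They went on with genes of the 2-cell-like state, with interferon-stimulated genes and with chemokine genes such as Ccl3 (-3.32 ± 0.105) and Ppbp (-3.00 ± 0.12). Medag, known from adipocyte differentiation, fell by 3.30, the mitochondrial arginase gene Arg2 by 3.01 and the ankyrin repeat gene Ankrd1 by 2.87.

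**Figure D1:**
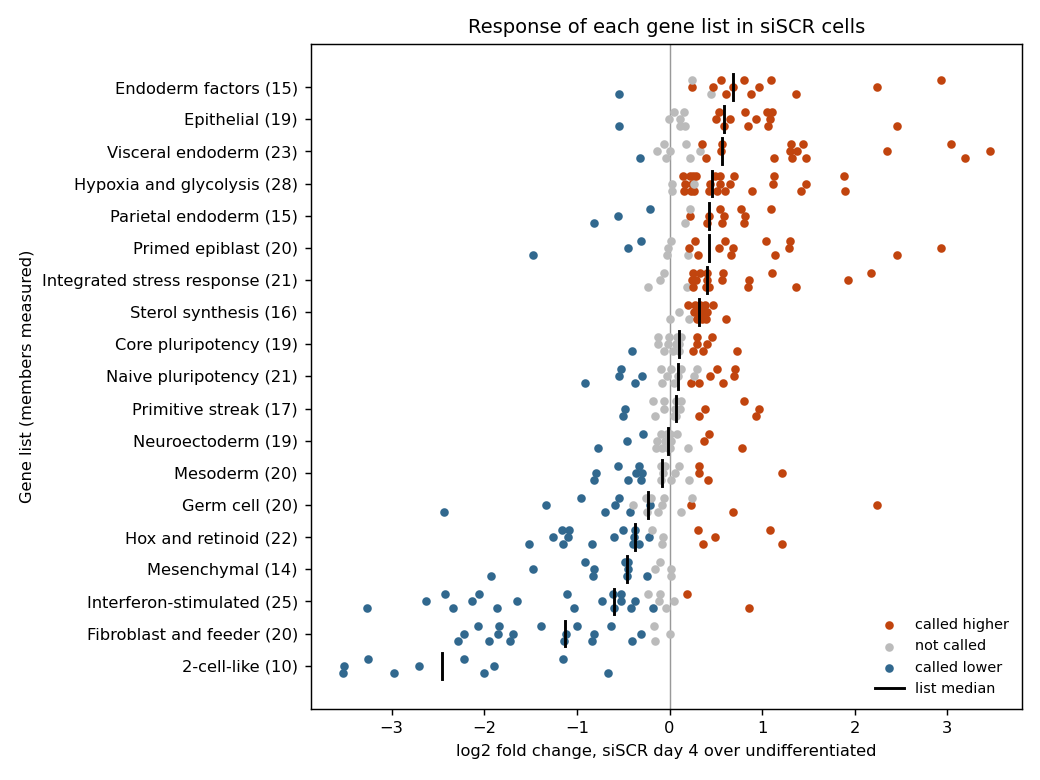
Each point is the log2 fold change of 1 gene in siSCR cells, day 4 over undifferentiated, for 19 gene lists on the vertical axis ordered by their median (black bar), with the number of measured members in brackets. The medians run from -2.46 for 2-cell-like genes to 0.68 for endoderm factors, and colours mark genes called higher, lower or not called.

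Visceral endoderm genes rose together. Of 23 measured, 15 were higher, 1 lower and 7 not called, with a median of 0.56 against 0.00067 for all genes. Lrp2, the gene of the endocytic receptor megalin, had levels of 11.64, 11.81 and 11.71 at day 4, against 8.28, 8.19 and 8.30 in undifferentiated cells. The groups lay far apart, and the difference of 3.46 ± 0.084 is 11.0-fold (adjusted p = 6.3e-17). Cubn, which encodes its partner cubilin, had 12.49, 12.63 and 12.61 at day 4 and 10.27, 10.22 and 10.18 before aggregation, a difference of 2.35 ± 0.095. Amnionless (Amn), which brings cubilin to the cell surface, was at 9.89, 10.14 and 10.00 in day 4 cells and at 8.58, 8.61 and 8.53 in undifferentiated ones (1.44 ± 0.077). The endocytic adaptor gene Dab2 rose by 1.33 ± 0.070, so that all 4 of these partners in uptake were called higher. Each was also without overlap between the groups, as were 4180 (21%) of all genes in this direction and 3984 (20%) in the other. In these bulk RNA samples, more cells of a type and more RNA per cell cannot be told apart.

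Secreted products and proteases were among them. Transthyretin (Ttr), a carrier of thyroid hormone and retinol-binding protein, had levels of 9.70, 10.18 and 9.97 at day 4, against 6.81, 6.73 and 6.73 in undifferentiated cells, a difference of 3.19 ± 0.12. The apolipoprotein genes Apoa1 (1.48 ± 0.082) and Apob (1.30 ± 0.11) rose, as did Mttp (1.13 ± 0.10), whose product loads lipid onto apolipoprotein B. Alpha-fetoprotein (Afp), a marker of later visceral endoderm, had 6.78, 6.88 and 6.63 at day 4 and 6.36, 6.55 and 6.38 in undifferentiated cells. These groups did not overlap, but the difference of 0.33 ± 0.15 was not called (adjusted p = 0.103), and 4 of 16 other settings called it. The fibrinogen genes Fga (-0.14) and Fgb (0.22), the retinol carrier Rbp4 (0.00) and Apoa2 (-0.05) were not called, and transferrin (Trf) was lower (-0.31), a call lost in 9 of 16 other settings, among them without any single array of the 6 (adjusted p = 0.064 to 0.14) and after quantile normalization or centring. Ctsh, a lysosomal cysteine protease, stood at 10.04, 10.15 and 10.22 in embryoid bodies and at 7.25, 7.04 and 7.00 before. Its difference of 3.04 ± 0.13 was the extreme of a lysosome list in which 8 of 15 genes were higher, 2 lower and 5 not called, with Lgmn next at 0.83.

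**Figure D2:**
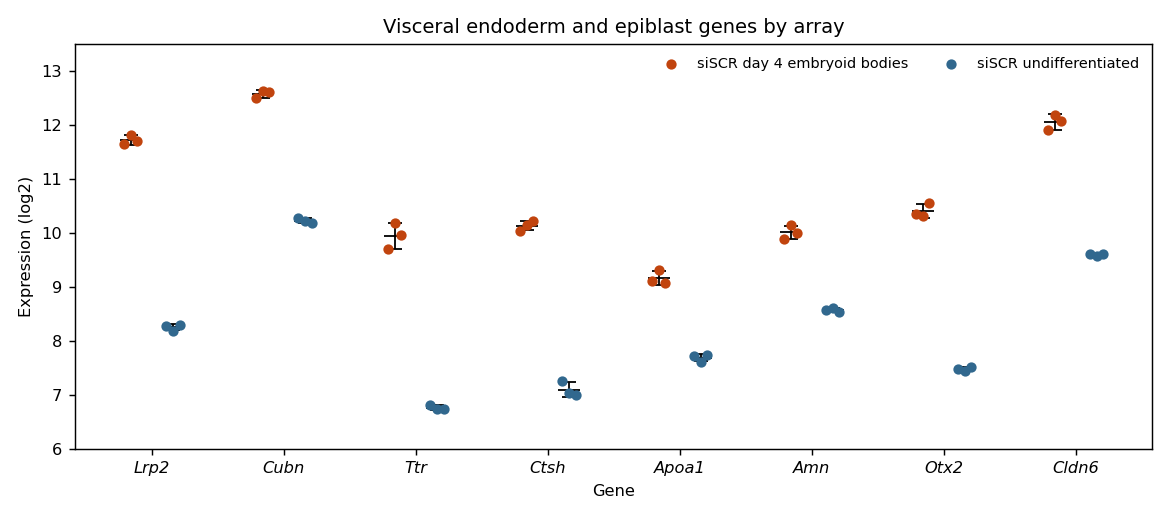
Log2 expression of 8 genes in the 3 siSCR day 4 arrays (left of each pair) and the 3 siSCR undifferentiated arrays (right), with mean and SD in black. No gene's groups overlap, and the gap is widest for Lrp2, with means of 11.72 at day 4 and 8.26 in undifferentiated cells.

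Transcription factors of endoderm rose with these products. Of 15 measured, 12 were higher, 1 lower and 2 not called (median 0.68). Hnf4a, a nuclear receptor needed in visceral endoderm, was at 10.00, 10.20 and 10.18 at day 4 and at 9.05, 8.99 and 9.07 in undifferentiated cells, a difference of 1.09 ± 0.067. Gata4 rose by 0.88 ± 0.074, Foxa2 by 0.68 ± 0.059 and Sox17 by 0.61 ± 0.12, while Gata6, a GATA factor of primitive endoderm, rose by 0.24 ± 0.055. Prdm1, a repressor active in visceral endoderm and in germ cell precursors, had 10.01, 10.17 and 10.23 in embryoid bodies, against 8.05, 7.81 and 7.84 before (2.24 ± 0.089). Foxa1 was the member that fell (-0.54), and it was not called without day 4 replicate 3 (adjusted p = 0.054). Basement membrane and parietal endoderm genes numbered 15, with 10 higher, 3 lower and 2 not called (median 0.43). The collagen IV genes Col4a1 (0.77) and Col4a2 (0.82), the laminin genes Lama1 (0.55) and Lamb1 (0.43) and the collagen chaperone gene Serpinh1 (0.57) rose, whereas Plat (-0.82), Pdgfra (-0.56) and Nid1 (-0.21) fell, Nid1 not after median centring (adjusted p = 0.0794).

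Genes of the post-implantation epiblast moved as well, with 13 of 20 higher, 3 lower and 4 not called (median 0.42). Otx2, a homeobox factor of the formative epiblast and of anterior visceral endoderm, had levels of 10.35, 10.31 and 10.55 at day 4, against 7.47, 7.45 and 7.51 in undifferentiated cells. All 3 day 4 arrays lay above all 3 others, by 2.93 ± 0.11 on average. Otx2 is also the highest member of the endoderm factor list, so the rises of these lists are not independent. Fgf5, the growth factor that marks this epiblast, was at 8.60, 8.70 and 8.69 in embryoid bodies and at 7.13, 7.41 and 7.58 before (1.29 ± 0.11). Lef1, a partner of beta-catenin, rose by 1.30, the zinc finger gene Zic2 by 1.13 and Sox11 by 1.04. The de novo DNA methyltransferase genes changed little: Dnmt3a was higher by 0.28 and Dnmt3b by 0.21 ± 0.059, and Dnmt3b was no longer called without undifferentiated replicate 2 (adjusted p = 0.057). Their cofactor gene Dnmt3l rose by 0.60. Pou3f1 (0.20), Sox3 (-0.02) and Sall2 (-0.03) were not called, and N-cadherin (Cdh2) fell, as described next.

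Epithelial genes rose while mesenchymal ones fell. Of 19 epithelial genes 12 were higher, 1 lower and 6 not called (median 0.59). The tight junction gene Cldn6 was at 11.90, 12.19 and 12.08 at day 4 and at 9.61, 9.57 and 9.61 in undifferentiated cells, a difference of 2.45 ± 0.077. Cldn7 (1.11), Krt19 (1.08), the splicing factor gene Esrp1 (1.07), Ocln (1.06) and Epcam (0.82) were higher too, but E-cadherin (Cdh1) stood at 11.93 on average in embryoid bodies and 11.88 before, a difference of 0.05 that was not called. Of 14 mesenchymal genes 0 were higher, 10 lower and 4 not called (median -0.45). Cdh2 had 8.35, 8.09 and 8.21 at day 4, against 9.79, 9.64 and 9.64 in undifferentiated cells (-1.48 ± 0.11). Cdh11 fell by 1.92, Snai2 by 0.91, Zeb2 by 0.83 and Vim by 0.44, while the fibronectin gene Fn1 (0.01) and Mmp14 (-0.15) were not called. Markers of fibroblasts fell alongside, as given below, and their part in the mesenchymal falls was not tested.

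Core pluripotency genes were called in 8 of 19 cases, against 28.2% of all genes, and 7 of the 8 were higher at day 4. Pou5f1, which encodes OCT4, had levels of 13.20, 13.17 and 13.18 at day 4 and of 13.10, 13.11 and 13.14 in undifferentiated cells. The groups did not overlap by a narrow margin. The difference of 0.07 ± 0.041 was not called as fitted (adjusted p = 0.294), although median centring called it higher (adjusted p = 0.031). Nanog was at 13.18, 13.10 and 13.17 in embryoid bodies, against 13.36, 13.25 and 13.22 before, a difference of -0.13 ± 0.051 that was not called as fitted (adjusted p = 0.0633), whereas a robust fit with a variance trend (adjusted p = 0.00946) and one without the dimmest 25% of genes (adjusted p = 0.0411) called it lower. Sox2 rose by 0.36 ± 0.073. Over all 19 core genes, 7 were higher, 1 lower and 11 not called, Pou5f1 and Nanog among the last (median 0.097). The growth factor gene Fgf4 (0.73), Foxd3 (0.46) and Utf1 (0.41) were higher and Dppa2 was lower (-0.41).

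Naive-state genes were divided, with 7 of 21 higher, 5 lower and 9 not called (median 0.094). Klf4, a factor maintained by LIF signalling, was at 10.80, 10.84 and 10.76 at day 4 and at 11.30, 11.32 and 11.35 in undifferentiated cells (-0.52 ± 0.12). Fbxo15 fell by 0.92 ± 0.064, Tbx3 by 0.55 and Pecam1 by 0.37, while Nr0b1 (0.71), Morc1 (0.70), Tcl1 (0.58) and Nr5a2 (0.51) rose. Esrrb (0.09), Zfp42 (-0.08), Klf5 (0.04) and Tfcp2l1 (0.02) were not called. Of 14 genes of the LIF and STAT3 pathway 3 were higher, 7 lower and 4 not called (median -0.20): the feedback inhibitor gene Socs3 (-0.54) and the kinase gene Pim1 (-0.85) fell, and the receptor gene Lifr rose by 0.84.

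Markers of the germ layers were called in both directions, against 28.2% called over all genes. Among primitive streak genes, 5 of 17 were higher, 2 lower and 10 not called (median 0.070). Eomes, a T-box factor of streak and visceral endoderm, had 10.17, 10.17 and 10.33 at day 4 and 9.47, 9.16 and 9.24 in undifferentiated cells, a difference of 0.93 ± 0.12. Lhx1, which acts in anterior visceral endoderm and streak, rose by 0.97 and Fst by 0.80. Mixl1 (-0.16), Gsc (0.07) and Mesp1 (0.05) were not called, and T was not analysed here. Mesp1, the earliest marker of nascent mesoderm, stood at 6.90, 6.84 and 6.64 in embryoid bodies, against 6.66, 6.73 and 6.83 before, and these overlap. Mesoderm genes numbered 20, with 4 higher, 8 lower and 8 not called, against 13.7% lower over all genes. After quantile normalization or centring 5 were higher and 4 lower. Without day 4 replicate 1, 5 mesoderm genes were lower, and 4 without day 4 replicate 2 or 3 or undifferentiated replicate 2 or 3. Neuroectoderm genes numbered 19, with 3 higher, 3 lower and 13 not called, with Hesx1 (0.79) and Sox1 (0.43) among the rises and Pax6 (-0.29) among the falls, although Pax6 lost its call in 9 of 16 other settings. Of the 3 neuroectoderm falls 1 was left without day 4 replicate 3 or undifferentiated replicate 2. Trophectoderm genes numbered 16, with 5 higher, 1 lower and 10 not called. Of 12 cardiac genes 0 rose, 3 fell and 9 were not called. Of 16 endothelial and blood genes 2 rose, Flt1 (1.36) and Cdh5 (0.91), and 1 fell, whereas the embryonic globin genes Hba-x (-0.03) and Hbb-bh1 (0.12) were not called.

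Ligands, antagonists, effectors and transcription factors of 4 signalling pathways were among the called genes. Over all genes 28.2% were called, 14.5% higher and 13.7% lower. In the Nodal pathway, 8 of 21 genes were higher, 2 lower and 11 not called. The transcription factor gene Foxh1 (0.84), the feedback genes Skil (0.76), Lefty2 (0.40) and Lefty1 (0.26) and the ligand gene Gdf3 (0.56) rose, while the effector gene Smad3 (-0.99) and the activin subunit gene Inhba (-1.29) fell. Nodal itself (0.11) was not called. In the BMP pathway, 4 of 25 were higher and 7 lower (6 higher and 4 lower after median centring, 5 higher and 4 lower without undifferentiated replicate 2, 4 and 4 without day 4 replicate 3), with the ligand gene Bmp2 at 7.83, 7.60 and 7.56 at day 4 and 6.70, 6.15 and 6.00 in undifferentiated cells (1.38 ± 0.16) and Bmp7 lower (-0.60). The target genes Id1 (-0.04), Id2 (0.15) and Id3 (-0.05) were not called as fitted. Id2 was called higher after median centring or scaling, and with a variance trend or array weights (adjusted p = 0.00232 to 0.0403). It was also called without the siSCR arrays of DMSO and retinoic acid (adjusted p = 0.0308). In the Wnt pathway, 9 of 33 were higher and 5 lower, and secreted antagonists led: Notum, which inactivates Wnt ligands, rose by 1.47 ± 0.12 and Dkk1, a receptor antagonist, by 1.37 ± 0.086. The feedback gene Axin2 was higher by 0.30, a call lost without any single array of the 6. In the FGF pathway, 6 of 23 were higher and 6 lower, and the immediate early genes Fos (-1.94 ± 0.11) and Egr1 (-2.04 ± 0.092) fell. Egr1 had 8.40, 8.47 and 8.58 in embryoid bodies, against 10.50, 10.53 and 10.53 before.

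Hypoxia and glycolysis genes rose in nearly the whole list, with 25 of 28 higher, 0 lower and 3 not called (median 0.46). Ndrg1, a stress-responsive gene, had levels of 11.47, 11.67 and 11.60 at day 4, against 9.63, 9.70 and 9.71 in undifferentiated cells (1.90 ± 0.082, or 3.73-fold). Egln3, a prolyl hydroxylase that marks HIF for decay and is itself a HIF target, was at 12.23, 12.27 and 12.33 in embryoid bodies and at 10.42, 10.43 and 10.32 before (1.89 ± 0.059). Every day 4 array lay above every undifferentiated array for both. Bnip3, a mitophagy gene, rose by 1.42 ± 0.062, Adm, the adrenomedullin gene, by 1.13 ± 0.12, and Ddit4, an inhibitor of mTORC1, by 1.11 ± 0.063. Glycolytic enzymes moved less: Aldoc by 0.89, Pfkp by 0.59, Pfkl by 0.55 and Pgk1 by 0.24, while lactate dehydrogenase (Ldha, 0.02), Hk1 (0.03) and Car9 (0.26) were not called. Car9 was called higher after quantile normalization, centring or scaling, with array weights, and without day 4 replicate 1 or undifferentiated replicate 2 (adjusted p = 0.000264 to 0.0346). P4ha2, counted as higher, lost its call after quantile normalization and without day 4 replicate 1 or 2 or any undifferentiated replicate (adjusted p = 0.0584 to 0.152). Vegfa, the angiogenic growth factor gene, rose by 0.51 ± 0.063.

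HIF binds a short core sequence, so the promoters of the 3 genes with the highest fold among those of this list that hold these letters are shown, 250 bases before to 50 bases after the start site, from RefSeq on GRCm38.p6, 5′ to 3′ along the gene. Capitals mark ACGTGC or its reverse complement GCACGT. No other form of the core was searched, so unmarked stretches and windows without a match may hold other forms.
Bnip3 promoter: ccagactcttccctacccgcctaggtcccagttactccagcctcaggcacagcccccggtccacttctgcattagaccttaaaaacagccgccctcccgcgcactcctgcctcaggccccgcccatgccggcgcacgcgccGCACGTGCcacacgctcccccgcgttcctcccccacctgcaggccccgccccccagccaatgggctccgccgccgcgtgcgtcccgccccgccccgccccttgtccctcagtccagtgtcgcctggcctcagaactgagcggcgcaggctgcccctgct
Ddit4 promoter: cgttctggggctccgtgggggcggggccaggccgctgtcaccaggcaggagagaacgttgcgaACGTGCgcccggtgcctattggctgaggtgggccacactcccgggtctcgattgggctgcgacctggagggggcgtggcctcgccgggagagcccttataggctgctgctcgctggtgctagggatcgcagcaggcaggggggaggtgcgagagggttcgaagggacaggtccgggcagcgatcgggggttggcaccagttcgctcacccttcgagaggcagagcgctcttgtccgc
Ero1a promoter: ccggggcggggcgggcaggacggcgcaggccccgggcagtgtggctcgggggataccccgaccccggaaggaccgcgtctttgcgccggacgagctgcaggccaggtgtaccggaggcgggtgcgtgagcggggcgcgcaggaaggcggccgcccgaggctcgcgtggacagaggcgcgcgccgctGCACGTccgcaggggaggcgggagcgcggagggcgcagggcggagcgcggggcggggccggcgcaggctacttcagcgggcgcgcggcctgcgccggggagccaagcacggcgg
The Bnip3 window lies at chr7:138909457-138909756, that of Ddit4 at chr10:59951721-59952020 and that of Ero1a, a thiol oxidase gene of the endoplasmic reticulum that rose by 0.70 ± 0.072, at chr14:45318523-45318822, all on the minus strand. In Bnip3 both orientations overlap in 1 stretch, which also holds CACGTG, the E-box letters, and they begin 109 and 107 bases before the start site. The match begins 187 bases before it in Ddit4 and 64 bases in Ero1a. Of the 28 measured genes 24 had a window in the table, and 12 of these held the letters on either strand, against 7.74% of 15614 measured genes with a window and 5.91% of all 32851 promoter windows. Genes of this list were picked as HIF targets, so the share describes the choice of list. Of the 12 genes with a match 9 were called higher and 3 not called, and all 12 without one in these windows, Egln3, Adm and Vegfa among them, were called higher.

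Stress and sterol genes rose beside them. Of 21 genes of the integrated stress response and amino acid supply, 17 were higher, 0 lower and 4 not called (median 0.40). Stc2, a secreted glycoprotein gene induced by ATF4, had 10.59, 10.43 and 10.37 at day 4 and 8.25, 8.48 and 8.13 in undifferentiated cells (2.18 ± 0.087). The cystine transporter gene Slc7a11 rose by 1.93 ± 0.15, the arginine and lysine transporter gene Slc7a3 by 1.36 ± 0.056 and Chac1, which degrades glutathione, by 1.11. Serine synthesis genes Phgdh (0.40), Psat1 (0.29) and Psph (0.40) followed, but Ddit3, which encodes CHOP, was not called (-0.05). Of 16 sterol synthesis genes 13 were higher, 0 lower and 3 not called (median 0.32), with Lss at 0.61 and the regulator gene Srebf2 at 0.47. Of 15 p53 target genes 3 were higher and 4 lower, against 14.5% and 13.7% of all genes.

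Genes of the 2-cell-like state fell in full, 10 lower of 10 measured (median -2.46). Zfp352, a zinc finger gene of the cleavage embryo, had levels of 6.92, 7.28 and 7.25 at day 4, against 10.21, 10.16 and 10.01 in undifferentiated cells, and was 7.89-fold lower. Tmem92 was at 7.89, 7.74 and 8.03 in embryoid bodies and at 11.24, 11.05 and 11.12 before (-3.26 ± 0.16). The deubiquitinase genes Usp17la (-3.53 ± 0.19) and Usp17lc (-2.70) and the POZ-domain gene Tdpoz3 (-3.52 ± 0.16) fell alike, and so did Obox6, an oocyte homeobox gene (-3.23 ± 0.27), and Eif4a3l1 (-3.38 ± 0.23), both named as leading falls. Members of these families are near copies, and probes shared between them could not be told apart. Zscan4c was not analysed here. Undifferentiated arrays varied more than day 4 arrays for Eif4a3l1, at 7.13, 6.94 and 6.91 at day 4 and 10.86, 9.76 and 10.50 in undifferentiated cells. Of 20 germ cell genes 3 were higher, 8 lower and 9 not called (median -0.23). The meiotic inducer Stra8 (-2.44 ± 0.14), the piRNA gene Mael (-1.33) and the RNA-binding gene Dazl (-0.95) fell, and Prdm1 was the member that rose most.

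Interferon-stimulated genes fell, 18 of 25 lower, 2 higher and 5 not called (median -0.60). Usp18, which removes the ubiquitin-like ISG15 from proteins, had 6.67, 7.09 and 6.88 at day 4 and 10.19, 10.04 and 10.19 in undifferentiated cells, 9.61-fold lower. Mx2, an antiviral GTPase gene, fell (-2.64), as did Oasl2 (-2.43), Ifit3 (-2.34), Oas2 (-2.13) and Trim30a, named as a leading fall (-3.33). Of the whole list Ifitm1 (0.86) and Ifitm2 (0.19) rose, Ifitm2 not without undifferentiated replicate 2 (adjusted p = 0.0525), and Rsad2 (-0.23), Stat2 (0.05) and Ifih1 (-0.04) were not called.

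Markers of fibroblasts and feeder cells fell as well, 0 higher, 17 lower and 3 not called of 20 (median -1.13). Their summed linear level was 8478 to 9011 per array at day 4, against 20001 to 20851 in undifferentiated cells. The matrix proteoglycan gene Dcn had 9.21, 9.21 and 9.08 in embryoid bodies and 11.16, 10.92 and 10.97 before (-1.85 ± 0.079). S100a4, a calcium-binding protein gene of fibroblasts, fell (-2.28), and so did the chemokine gene Ccl2 (-2.22), the collagen crosslinker gene Lox (-2.07), Thy1 (-1.84) and Col1a1 (-0.84), while Lum (0.01), Col3a1 (-0.17) and Col5a1 (-0.15) were not called. Feeder cells had been passaged away on gelatin according to the labels, and the sums of the 2 states did not overlap. The part of these markers in the falls of interferon, mesenchymal, chemokine and Hox genes, and in those of Efemp1 and Medag, was not tested. Hox and retinoid genes numbered 22, with 5 higher, 14 lower and 3 not called (median -0.38). Hoxb2 fell by 1.25, Hoxa2 by 1.16, the receptor gene Rarb by 1.08 and the retinoid-binding gene Crabp1 by 1.52, but the retinoic acid hydroxylase gene Cyp26a1 rose by 1.22 and the homeobox cofactor gene Meis2 by 1.09.

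**Figure D3:**
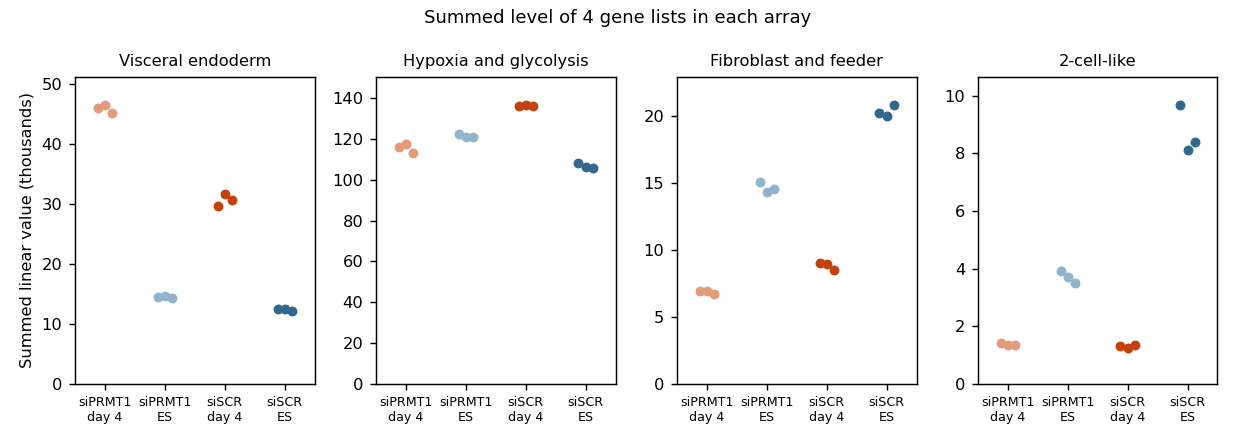
Summed linear expression values (scaled as the axis label states) of 4 gene lists in each array of siPRMT1 and siSCR cells at day 4 and undifferentiated (ES), with 3 arrays per group. In siSCR cells the fibroblast and feeder sum is 8478 to 9011 at day 4 and 20001 to 20851 in undifferentiated cells, and the 2-cell-like sum is 1228 to 1331 at day 4 and 8136 to 9683 in undifferentiated cells.

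Of 20 genes of G1 and S phase 0 were higher, 8 lower and 12 not called (median -0.11), and 3 were lower after median centring. This count and those that follow stand against 14.5% higher and 13.7% lower over all genes. Cyclin D1 (Ccnd1) was the exception in size, at 11.36, 11.45 and 11.37 at day 4 and 12.59, 12.66 and 12.70 in undifferentiated cells (-1.26 ± 0.056). The proliferation marker Mki67 (0.01) was not called, and G2 and mitosis genes numbered 15, with 1 higher, 3 lower and 11 not called, but this count turned to 3 higher and 0 lower after median centring and to 2 higher and 1 lower without day 4 replicate 2. With only the compared arrays 0 were called, and 1 was lower and 0 higher without undifferentiated replicate 2 or 3. The inhibitor genes Cdkn1b (0.72) and Cdkn1c (0.60) rose, and Cdkn2c (-1.13) and Cdkn2b (-0.60) fell. Polycomb and related genes numbered 14, with 6 higher, 1 lower and 7 not called, led by Cbx7 (0.69) and Ezh1 (0.63). Among 13 DNA methylation genes, 6 rose, 2 fell and 5 were not called. A list of arginine methyltransferase genes, which also holds the F-box gene Fbxo11, had 9 measured members. Prmt8 (0.58), Prmt7 (0.21) and Fbxo11 (0.19) were higher, Prmt2 was lower (-0.64) and 5 were not called. Fbxo11 lost its call with only the compared arrays (adjusted p = 0.0527) and without undifferentiated replicate 2 or 3 (adjusted p = 0.0672 and 0.0566). Of 9 reference genes 6 were not called, Actb (-0.03) and Ppia (0.03) among them, while B2m fell by 0.94, Gusb by 0.51 and Rplp0 by 0.16.

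Imprinted genes rose more often than they fell, 8 higher, 4 lower and 4 not called of 16 (median 0.17). Peg3 was higher by 1.04 ± 0.096 and the growth factor gene Igf2 by 0.96 ± 0.082, whereas its clearance receptor gene Igf2r (-0.48) and Phlda2 (-0.82) were lower. At the Dlk1-Meg3 locus on chromosome 12, noncoding RNAs of the maternal allele and the paternally expressed Dlk1 moved in opposite directions. Meg3 had 10.04, 10.48 and 10.55 at day 4 and 9.20, 9.72 and 9.63 in undifferentiated cells (0.84 ± 0.13), and Rian rose by 0.65 ± 0.12, while Dlk1 fell by 0.51 ± 0.11. In all 47 genes of the locus were measured, chosen by position after their values were seen, of which 14 were higher, 1 lower and 32 not called. Over all genes 14.5% were higher and 13.7% lower. Among its 40 microRNA genes 11 were higher, 0 lower and 29 not called, against 21 higher and 9 lower of all 300 microRNA genes. Of the 40 differences 38 were above 0 (median 0.16, against 0.03 over all microRNA genes).

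**Figure D4:**
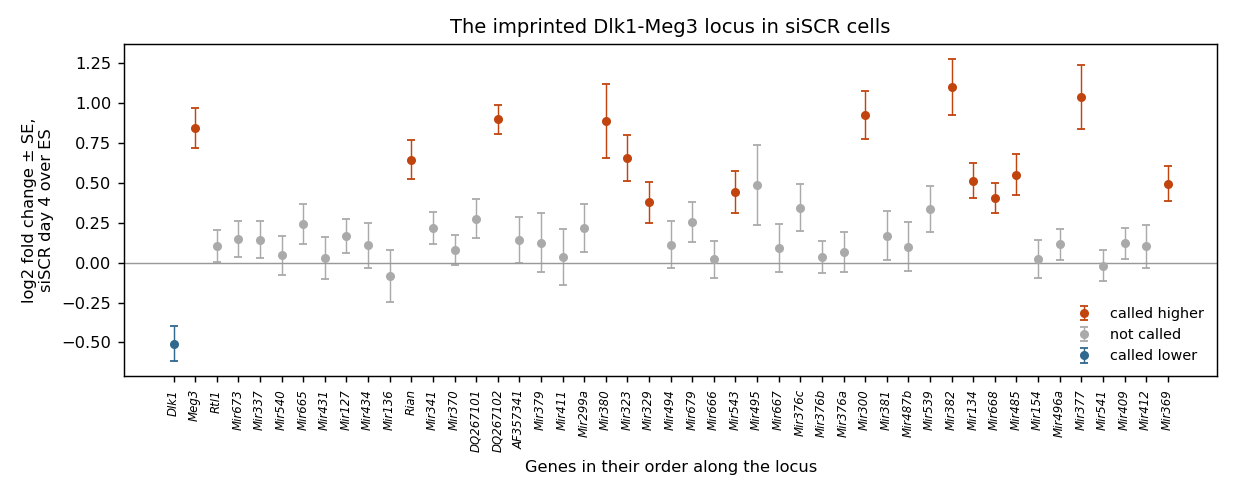
Log2 fold change ± SE of 47 genes in their order along the imprinted Dlk1-Meg3 locus in siSCR cells, day 4 over undifferentiated. Dlk1 lies at -0.51, Meg3 at 0.84 and Rian at 0.65, and the called microRNA genes all lie above 0.

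The array also carries microRNA hairpins. Of 300 genes with a microRNA symbol 21 were higher, 9 lower and 270 not called, against 28.2% called over all genes. Of the 30 called 29 were hairpins with a mature sequence in RefSeq. The mature sequences of some called hairpins, chosen after values were seen, are given so that hairpins of shared and unshared seed can be compared. Others that rose as far, Mir130a (1.03), Mir135b (0.96) and Mir1839 (0.91), are not shown. Capitals mark the seed, bases 2 to 8, and the sequences are 5′ to 3′ from RefSeq on GRCm38.p6.
miR-17-5p: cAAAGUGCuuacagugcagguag
miR-20a-5p: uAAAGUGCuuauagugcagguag
miR-19b-3p: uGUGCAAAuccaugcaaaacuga
miR-363-3p: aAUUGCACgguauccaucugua
miR-15a-5p: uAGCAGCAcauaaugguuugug
miR-382-5p: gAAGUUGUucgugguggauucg
miR-377-3p: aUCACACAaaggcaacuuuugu
miR-300-3p: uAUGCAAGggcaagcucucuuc
The copies of miR-17-5p, miR-20a-5p and miR-19b-3p at chr14:115043684-115043706, chr14:115044183-115044205 and chr14:115044358-115044380 lie on the plus strand within 1 polycistron, the Mir17-92 cluster, which is known to promote proliferation. The copy of miR-363-3p lies at chrX:52741697-52741718 and that of miR-15a-5p at chr14:61632075-61632096, both on the minus strand. Those of miR-382-5p, miR-377-3p and miR-300-3p lie at chr12:109733781-109733802, chr12:109740553-109740574 and chr12:109724363-109724384 on the plus strand, within the Dlk1-Meg3 locus. A probe set reads the hairpin or its precursor, and which arm is matured was not measured.

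In the Mir17-92 cluster, 3 of 5 measured hairpins were lower and 2 not called. Mir20a had 6.25, 6.18 and 6.59 at day 4, against 8.04, 8.09 and 8.03 in undifferentiated cells (-1.71 ± 0.13). Mir19b-1 was at 7.11, 7.04 and 7.43 in embryoid bodies and at 9.07, 9.28 and 9.09 before (-1.95 ± 0.16). Mir17 fell by 0.89, while Mir18 (-0.07) and Mir19a (-0.14) of the same transcript were not called. Mir17 and Mir20a share the seed AAAGUGC with 4 more measured hairpins, Mir106a (0.23), Mir106b (-0.17), Mir20b (0.40) and Mir93 (-0.28), none of which was called as fitted. With array weights Mir106a and Mir20b were called higher and Mir106b and Mir93 lower (adjusted p = 0.00129 to 0.042). Mir106a was also called after median centring or scaling, with only the compared arrays, and without the siSCR arrays of DMSO and retinoic acid. Mir93 was also called without undifferentiated replicate 1. Mir363, of a related cluster on the X chromosome, had 7.29, 6.66 and 7.60 at day 4 and 4.66, 4.84 and 4.50 in undifferentiated cells, 5.73-fold higher. Its neighbours in the cluster, Mir106a, Mir20b, Mir19b-2 (0.18) and Mir92-2 (0.12), were above 0 but not called as fitted, nor were the other hairpins with its seed AUUGCAC. Mir15a rose by 1.62 ± 0.14 and its neighbour Mir16-1, with the same seed AGCAGCA, by 0.38 ± 0.12, a call lost without day 4 replicate 3 or undifferentiated replicate 1 or 2 (adjusted p = 0.0605 to 0.096). Mir382 (1.10 ± 0.17), Mir377 (1.04 ± 0.20) and Mir300 (0.93 ± 0.15) led the Dlk1-Meg3 hairpins, and their 3 seeds were shared with no other measured hairpin.

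Whether the control response differed from that of siPRMT1 cells was tested with an interaction term, siPRMT1 minus siSCR, in which the lines share no array. In siPRMT1 cells 8252 genes (41.4%) were called between day 4 and undifferentiated, 23% higher and 18.4% lower. The interaction called 4754 genes (23.8%), 2994 (15%) with a more positive response in siPRMT1 and 1760 (8.83%) with a more negative one, and 343 (1.72%) differed at least 2-fold. Scaling moves this split: the more positive share was 63.0% as deposited and 41.6% with arrays centred and scaled to one SD, so the larger direction turned. Visceral endoderm genes had a median response of 1.61 in siPRMT1, against 0.56 in siSCR, and 12 of 23 interactions were called more positive and 1 more negative. Ttr rose by 4.31 in siPRMT1 and 3.19 in siSCR (difference 1.12 ± 0.16), and Apoa1 by 3.06 in siPRMT1 and 1.48 in siSCR (1.58 ± 0.12). Lrp2 also differed, by 0.72 ± 0.12, whereas the interactions of Cubn (0.23) and Ctsh (0.05) were not called. Primed epiblast genes had medians of 1.33 in siPRMT1 and 0.42 in siSCR, with 13 of 20 called more positive and 0 more negative, among them Fgf5 (1.31 ± 0.16) and Dnmt3b (1.17 ± 0.083).

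Hypoxia and glycolysis genes responded differently in the lines. Their median response was -0.10 in siPRMT1 and 0.46 in siSCR, and the interaction was called more negative in siPRMT1 for 22 of 28, more positive for 1, P4ha2, and not called for 5. Ndufa4l2, a HIF-induced mitochondrial subunit gene, had 8.78, 8.68 and 8.92 at day 4 and 9.59, 9.61 and 9.60 undifferentiated in siPRMT1 cells. In siSCR cells it had 9.95, 10.13 and 10.23 at day 4 and 8.72, 8.50 and 8.66 undifferentiated, so the responses ran in opposite directions (-0.81 in siPRMT1 and 1.48 in siSCR, interaction -2.29 ± 0.15). Both states differed between the lines: the list summed 113380 to 117398 at day 4 in siPRMT1 against 136268 to 136744 in siSCR, and 121089 to 122676 undifferentiated in siPRMT1 against 105955 to 108415 in siSCR. Sterol synthesis genes were called more negative in siPRMT1 in 9 of 16, more positive in 0. The 2-cell-like fall was smaller in siPRMT1, with a median of -1.08 against -2.46 in siSCR, and 9 of 10 interactions were called. Day 4 sums lay close, at 1336 to 1426 in siPRMT1 and 1228 to 1331 in siSCR. Undifferentiated sums were 3504 to 3920 in siPRMT1 and 8136 to 9683 in siSCR. Fibroblast markers fell in both lines, with medians of -0.99 in siPRMT1 and -1.13 in siSCR, and summed 6705 to 6927 at day 4 and 14310 to 15089 undifferentiated in siPRMT1 cells. Of their 20 interactions 7 were called more positive, 2 more negative and 11 not called, against 15% and 8.83% of all genes. Meg3 responded by -0.35 in siPRMT1 and 0.84 in siSCR (interaction -1.19 ± 0.18).

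**Figure D5:**
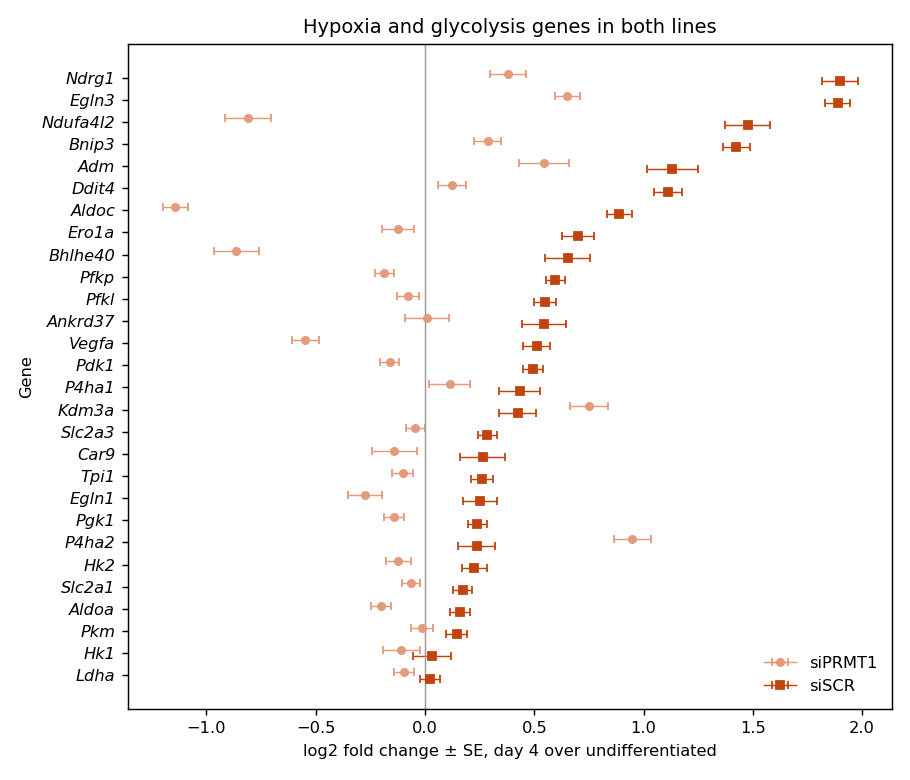
Log2 fold change ± SE, day 4 over undifferentiated, of 28 hypoxia and glycolysis genes in siPRMT1 (circles) and siSCR (squares) cells, with n = 3 arrays per group. The siSCR values run from 0.02 for Ldha to 1.90 for Ndrg1, and the list medians are -0.10 in siPRMT1 and 0.46 in siSCR.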

How the data were processed

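Total RNA of 24 samples (8 groups of 3) was measured on Affymetrix whole-transcript arrays, per the labels from 300 ng RNA each. The authors deposited 1 log2 value per probe set and array. Summarisation, normalization and genome build are not given in the sources used here, and no detection calls were used. A probe annotation gave 21789 of 35556 probe sets 1 symbol, 1621 several and 12146 none. Sets with 1 symbol were used, and for 999 genes with several sets the brightest was kept. The 6 arrays of siSCR day 4 and undifferentiated cells were compared in limma (version 3.58.1, under R 4.3.3) through a moderated fit of 8 group means to the 24 arrays, which leaves 16 residual degrees. Benjamini-Hochberg adjustment ran over 19938 genes, and genes under 0.05 were called. The fit was tested on simulated data. The number of arrays limits the precision, and the median standard error was 0.0932.

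The text names Prmt1, the 15 largest rises and 15 largest falls among called genes whose groups did not overlap (clone names, microRNAs and receptor families passed over), then defining and most changed members of 37 gene lists. The microRNA loci, uncalled members given as contrast and a few called members were chosen after values were seen. Members and lists were chosen with earlier results of these data known. Equal replicate numbers were checked for pairing: deviations correlated at 0.308, 0.508 and -0.0763 between the siSCR states. Day 4 replicates 1 and 2 matched best with their own number and replicate 3 with number 1, so this check did not settle pairing. The main fit took the samples as unpaired. Alternatives were the spread from the compared arrays alone, a replicate block, quantile normalization, median centring, scaling to one SD, no dim genes, mean of probe sets, variance trend, array weights, fewer groups, and leaving out each array. No identical arrays were found. The coordinates and sequences of promoters and microRNAs are RefSeq's on GRCm38.p6.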

Additional observations from a re-analysis of the deposited data

Results flagged for a closer look

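Among 155 genes screened, 24 responded to aggregation differently in the lines by an interaction that was called and at least 2-fold, 18 with a more positive and 6 with a more negative response in siPRMT1. Values are the log2 response of siPRMT1 minus that of siSCR. Genes that fell less in siPRMT1 were Eif4a3l1 (2.29), Tdpoz3 (1.73), Zfp352 (1.72), Usp17la (1.54) and Usp17lb (1.34) of the early embryo group, the chemokine genes Ppbp (1.77) and Ccl3 (1.42), and Arg2 (1.76). All of these began lower in undifferentiated siPRMT1 cells, and their day 4 levels lay nearer, with the widest gap in Arg2 (7.25 in siPRMT1, 6.82 in siSCR). Zfp352 averaged 8.44 undifferentiated and 7.18 at day 4 in siPRMT1, against 10.13 and 7.15 in siSCR. Ccl3 averaged 6.94 at day 4 in both lines, and undifferentiated 8.85 in siPRMT1 and 10.27 in siSCR. Cdh2 (1.74) and Pdgfra (1.12) fell in siSCR, with responses of 0.27 and 0.57 in siPRMT1. Genes that rose more in siPRMT1 were Cyp26a1 (1.82), Apoa1 (1.58), Ttr (1.12), Lef1 (1.57), Fgf5 (1.31), Dnmt3a (1.28), Dnmt3b (1.17) and Cdh5 (1.02). More negative in siPRMT1 were Prdm1 (-1.65), Socs3 (-1.48), Egln3 (-1.24), Bnip3 (-1.14), Klf2 (-1.13) and Vegfa (-1.06).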

How the results depend on the processing

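Of 287 genes recomputed, none called as reported changed sign in any setting run. Splits of counts did turn: the interaction gave 2270 more positive and 2400 more negative genes after median centring, and 1840 and 2585 after scaling as well. In siSCR cells 2434 were higher and 2450 lower without day 4 replicate 1, and 2329 and 2332 without day 4 replicate 3. Splits of mesoderm, BMP, G2 and mitosis, p53 and endothelial genes also turned in at least 1 setting. Medians of lists near 0 (neuroectoderm, BMP, p53, cardiac, G2 and mitosis, inhibitor, polycomb, methyltransferase and reference genes) changed sign in some. With array weights 8969 genes were called in siSCR cells, 4492 higher and 4477 lower, and the interaction called 7688, 4636 more positive and 3052 more negative. Prmt1 in siSCR cells, not called as reported, was called after quantile normalization (-0.14) and with array weights (-0.15). Leaving out 1 of the 6 siSCR arrays gave between 4661 and 5152 called genes. The fit with a replicate block called 5602, of which 5491 were among the 5632. Over these genes, those named in the text among them, 4441 of the alternative values for the siSCR response stayed on their side of the threshold, 68 gained a call and 60 lost it (in Pax6, Trf, Axin2, Mcm2, P4ha2, Suz12, Ctsl, Fbxo11, Rplp0, Mir16-1, Cdk1, Tet1, Dnmt3b, Foxa1, Ifitm2 and Nid1). Calls were gained in Afp, Car9, Col5a1, Dnmt1, Esrrb, Id2, Kdr, Mixl1, Mmp14, Nanog, Nes and Plk1. They were also gained in Pou3f1, Pou5f1, Sall4, Spry4, Stat3, Tbp, Tcf7l1, Zfp42, Mir106a, Mir106b, Mir20b and Mir93. Without the dimmest 25% of genes 7 of the 10 2-cell-like genes were left and 13 interferon genes were lower. Lowest to highest over 16 settings, hypoxia genes called higher numbered 22 to 26, visceral endoderm genes 14 to 17 and fibroblast markers called lower 16 to 18. With median centring, 4 BMP genes were lower and 10 FGF pathway genes higher, and with only the compared arrays 5 lysosome genes were higher. The causes were not tested, except that the filter removes genes by its construction. Depth is not defined for arrays, and genes near background could not be set apart. The labels give no batch.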
